A study of Gallus gallus with 2 samples.

Results

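Transforming growth factor beta (TGF-beta) signalling was followed in nuclei of chicken thymus through 4 genes, the receptor genes TGFBR1, TGFBR2 and TGFBR3 and the ligand gene TGFB2. The genes were taken by their symbols from the 28951 genes listed, and each symbol matched 1 row. They were chosen with their levels in these nuclei already known, so their own levels are described here without a test. The material was thymus of female chickens at 5 weeks of age, with no treatment or genotype named in the labels. The 2 libraries form 1 group of 2 replicates, and separate birds are not stated. Frozen tissue was taken apart into nuclei, and transcripts were counted by droplet sequencing with a unique molecular identifier (UMI) for each captured molecule.

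TGF-beta is a secreted dimer that binds TGFBR2, the type II receptor kinase. TGFBR2 then recruits and activates TGFBR1, the type I receptor kinase, which phosphorylates SMAD2 and SMAD3 so that they enter the nucleus with SMAD4. TGFBR3, also called betaglycan, is a co-receptor without kinase activity that presents ligand to TGFBR2, and TGFB2 is the ligand that depends most on it. In the mouse thymus this pathway takes part in the development of regulatory T cells and of other T cells that are selected by strong receptor signals. SMAD7, an inhibitory SMAD, is induced by the pathway and restrains it.

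After filtering, 4861 nuclei of replicate 1 (3905964 UMIs, median 660 per nucleus) and 5239 nuclei of replicate 2 (5490582 UMIs, median 827) were analysed. Clustering without the 4 genes gave 17 groups, 11 of the T lineage and 6 others. T-lineage nuclei made up 94.55% and 94.71% of the nuclei and held 88.4% of the UMIs. The T-lineage groups were double positive-like (1166 and 1628 nuclei, called DP-like), those like CD4 single positive cells (120 and 132, called CD4 SP-like), strongly signalled-like (100 and 119), innate-like mature (404 and 379), gamma delta-like (278 and 306), cycling gamma delta-like (224 and 174), cycling early double negative-like (cycling early DN-like, 151 and 198), S phase-like (545 and 509) and mitotic (444 and 357). No marker list named the other T-lineage groups, which are called by their leading genes HIVEP3 (742 and 686 nuclei) and HMCN1 (422 and 474). The others were thymic epithelial-like (84 and 94), B-like (53 and 53), dendritic-like (41 and 35), macrophage-like (34 and 41) and erythroid-like nuclei (27 and 27), and an unnamed group led by CHGA (26 and 27). DP-like nuclei carried RAG1, which cuts antigen receptor genes, at 1297 and 1094 UMIs per 1000000 UMIs of the group (CPM) and CD8A at 573 and 579 CPM. HMCN1-led nuclei had 506.5 and 400.7 CPM of RAG1, S phase-like nuclei 362 and 245 CPM and mitotic nuclei 322 and 303 CPM. DNTT, of the same marker list, had 8558 and 8894 CPM in HMCN1-led against 4632 and 5244 CPM in DP-like nuclei. RAG1 was at 0 CPM in both libraries in CD4 SP-like nuclei. Strongly signalled-like nuclei carried NR4A3, an early gene of T cell receptor signalling, at 2967 and 4644 CPM. Erythroid-like nuclei held T-lineage markers at a summed 12320 and 15810 CPM, against 31850 and 33250 CPM in DP-like nuclei, so their values below are not those of a pure red cell population. The innate-like mature group also met the CD4 single positive and early double negative lists, and the innate lymphoid list with 6 of 6 detected markers. Its T-lineage markers summed to 13540 and 15400 CPM, close to the erythroid-like sums. It was kept in the T lineage by a rule on that sum, so it may hold innate lymphoid cells. No group met the endothelial or mesenchymal lists. The libraries shared 13 barcode sequences, 10 of them among the analysed nuclei.

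All levels are UMIs of a gene summed over the nuclei of a group in 1 library, scaled to CPM, with the value of replicate 1 given before that of replicate 2. The genes lie on GRCg7b chromosome 2 from 55605162 to 55641715 (TGFBR1, ENSGALG00010007951), chromosome 2 from 39709134 to 39773208 (TGFBR2, ENSGALG00010002281), chromosome 8 from 14078489 to 14188389 (TGFBR3, ENSGALG00010022082) and chromosome 3 from 19040842 to 19104266 (TGFB2, ENSGALG00010019470). All are annotated as protein-coding. TGFBR2 gave 5654 UMIs in 2456 nuclei, TGFBR1 1924 UMIs in 1527 nuclei, TGFB2 440 UMIs in 259 nuclei and TGFBR3 396 UMIs in 264 nuclei. T-lineage nuclei held 97.7% of the TGFBR2 UMIs and 93.9% of the TGFBR1 UMIs, but 70.7% of those of TGFBR3 and 65.0% of those of TGFB2. Over all nuclei the libraries were close for each gene, at 607 and 598 CPM for TGFBR2, 204 and 206 CPM for TGFBR1, 42.2 and 42.1 CPM for TGFBR3, and 44.6 and 48.5 CPM for TGFB2.

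**Figure D1:**
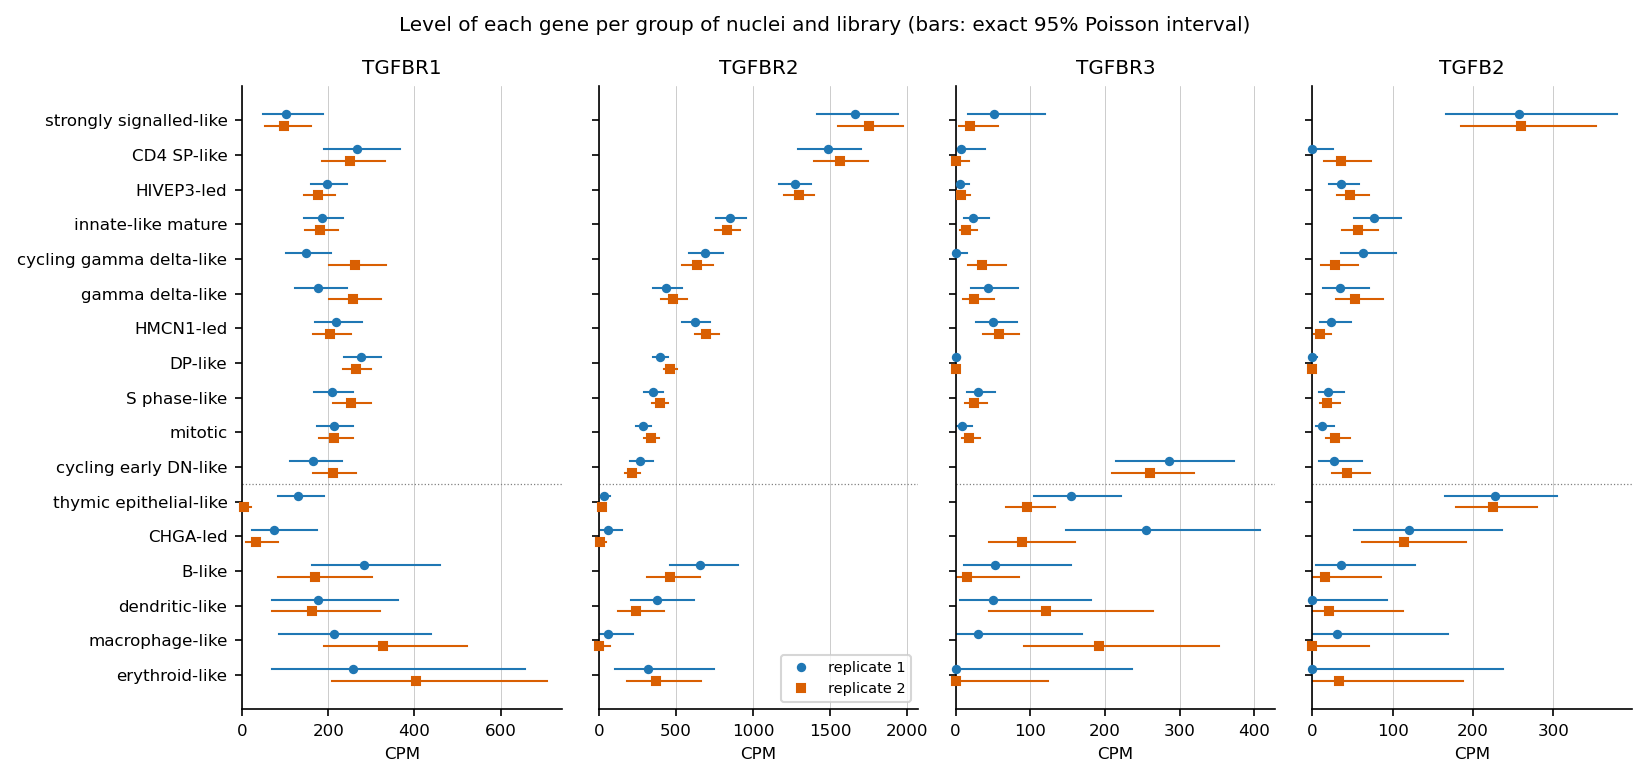
Level of TGFBR1, TGFBR2, TGFBR3 and TGFB2 in each group of nuclei, in CPM on linear axes, with 1 point per library and its exact 95% Poisson interval; T-lineage groups stand above the dotted line. TGFBR2 spans 214 to 1751 CPM over the T-lineage groups, TGFBR1 stays between 97.3 and 276 CPM there, and TGFBR3 and TGFB2 each peak in 1 T-lineage group.

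TGFBR2, the type II receptor, was highest in strongly signalled-like, CD4 SP-like, HIVEP3-led and innate-like mature nuclei. Strongly signalled-like nuclei had 1663 and 1751 CPM of TGFBR2. CD4 SP-like nuclei had 1486 and 1562 CPM. HIVEP3-led nuclei, which met no stage list although the activation gene EGR1 was among their leading genes, had 1269 and 1295 CPM. Innate-like mature nuclei, which carry GNLY, the gene of a cytotoxic granule protein, followed at 853 and 832 CPM. At this clustering the 4 groups stood in the same order in both libraries, and the library values of each lay apart from those of the next. The Poisson intervals of CD4 SP-like nuclei still overlapped with those of strongly signalled-like and of HIVEP3-led nuclei. The first place depended on how the groups were drawn: with doublets kept, strongly signalled-like nuclei had a mean of 1335 CPM and CD4 SP-like nuclei 1571 CPM, and at the finer clustering 1502 and 1532 CPM. With at least 400 detected genes per nucleus the means were 2046 and 1494 CPM.

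Below them TGFBR2 ranged widely with little separation between neighbours. HMCN1-led nuclei had 626 and 698 CPM, cycling gamma delta-like nuclei 688 and 635 CPM, and gamma delta-like nuclei 438 and 481 CPM. DP-like nuclei, the most numerous group, had 398 and 463 CPM. The values of HMCN1-led, cycling gamma delta-like and B-like nuclei (654 and 460 CPM) overlapped, and those of gamma delta-like nuclei overlapped with those of B-like and DP-like nuclei. S phase-like nuclei had 352 and 394 CPM, mitotic nuclei 285 and 339 CPM, and cycling early DN-like nuclei were the lowest of the T lineage at 270 and 214 CPM. Of the 16 neighbouring pairs in the order of all groups, 6 were apart and 10 overlapped.

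Against DP-like nuclei, TGFBR2 was 4.18-fold and 3.79-fold higher in strongly signalled-like nuclei. The same ratio was 3.73 and 3.38 for CD4 SP-like, 3.19 and 2.80 for HIVEP3-led and 2.14 and 1.80 for innate-like mature nuclei. Mitotic nuclei were at 0.715 and 0.732 of the DP-like level. The DP-like group joined a pair of clusters, of 1464 and 1330 nuclei, whose TGFBR2 values overlapped, with 390 and 409 CPM in the larger and 404 and 506 CPM in the smaller.

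The non-T groups split in TGFBR2. B-like nuclei (654 and 460 CPM) and dendritic-like nuclei (376 and 243 CPM) lay within the range of thymocytes. Macrophage-like nuclei had 2 UMIs in replicate 1 and none in replicate 2. Thymic epithelial-like nuclei had 36.1 and 22.0 CPM, 15 UMIs from only 3 of 178 nuclei although their median depth of 2731.5 UMIs was the highest of all groups. All 15 came from nuclei that also held a UMI of TTN, the titin gene. The T lineage as a whole was 18.2-fold and 30.5-fold above the epithelial level.

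The share of nuclei with TGFBR2 did not order all groups as the level did. At least 1 UMI was found in 67.5% and 70.5% of CD4 SP-like nuclei, 59.0% and 63.0% of strongly signalled-like nuclei and 38.3% and 46.9% of HIVEP3-led nuclei. Innate-like mature nuclei, lower in level than HIVEP3-led nuclei, had 44.3% and 45.9%. DP-like nuclei had the lowest share of the T lineage, 9.95% and 12.6%, although cycling early DN-like nuclei, with the lowest level, had 16.6% and 20.2%. Depth differed, with medians of 1097.5 and 1402.5 UMIs in CD4 SP-like against 471 and 580 in DP-like nuclei. With every nucleus thinned to 500 UMIs, which left out 672 and 603 shallower DP-like nuclei, the shares were 45.6% and 46.5% for CD4 SP-like, 49.1% and 46.2% for strongly signalled-like, 37.2% and 40.7% for HIVEP3-led, 31.4% and 29.8% for innate-like mature, 9.47% and 7.60% for cycling early DN-like and 11.9% and 13.1% for DP-like nuclei.

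The number of TGFBR2 UMIs per nucleus was unusual in several groups and limits how low levels can be read. In DP-like nuclei 29 and 39 nuclei held exactly 1 TGFBR2 UMI, whereas 62 and 103 held exactly 2. HMCN1-led nuclei showed this most, with 3 and 3 nuclei at 1 UMI against 42 and 74 at 2 UMIs. S phase-like nuclei had 9 and 10 against 37 and 59, and cycling gamma delta-like nuclei 13 and 9 against 23 and 22. HIVEP3-led (124 and 148 against 92 and 97), innate-like mature (87 and 63 against 55 and 52) and gamma delta-like nuclei (52 and 61 against 15 and 21) had the usual order, with more nuclei at 1 UMI than at 2. Among genes found in at least 20 DP-like nuclei, 6.07% and 5.03% had more nuclei at 2 UMIs than at 1. TGFBR1 did not show it in DP-like nuclei, where 127 and 171 nuclei held 1 UMI and 19 and 46 held 2. The names of the deposited count tables refer to CellBender, a correction that removes UMIs of free RNA from each nucleus, and its part in the missing single UMIs was not tested.

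**Figure D2:**
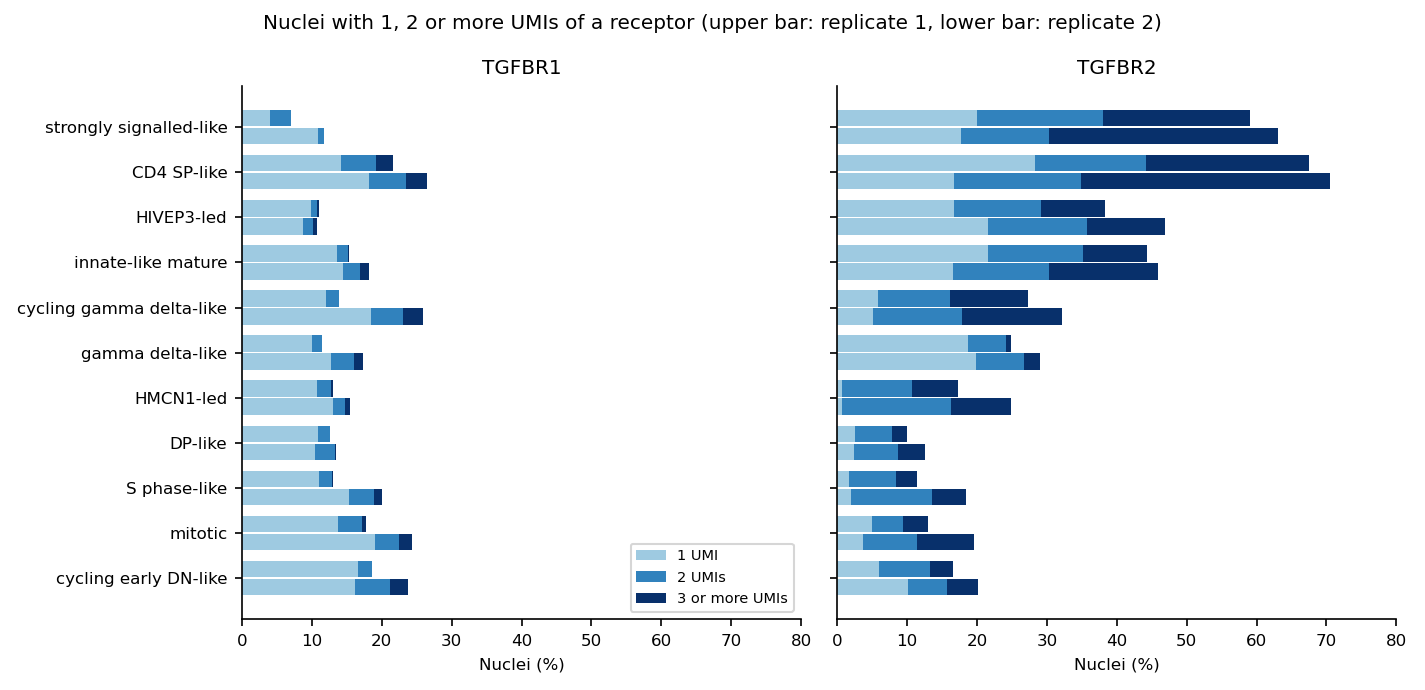
Percentage of nuclei with 1, 2, or 3 or more UMIs of TGFBR1 (left) and TGFBR2 (right) in each T-lineage group; upper bars are replicate 1 and lower bars replicate 2, both axes linear from 0. The lightest segment, nuclei with 1 UMI, is nearly absent for TGFBR2 in HMCN1-led nuclei (0.711% and 0.633%) and small in DP-like nuclei (2.49% and 2.40%), while TGFBR1 has it in every group.

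Levels without single UMIs were therefore set beside the full ones. In all groups alike, the TGFBR2 UMI of each nucleus that held only 1 was not counted, while the UMI total of the group was left unchanged. The ratio to DP-like nuclei was then 4.16 and 3.80 in strongly signalled-like, 3.56 and 3.42 in CD4 SP-like, 2.87 and 2.38 in HIVEP3-led and 1.78 and 1.66 in innate-like mature nuclei. Gamma delta-like nuclei changed sides, from 1.10 and 1.04 of the DP-like level to 0.528 and 0.621. Among nuclei of 700 to 1500 UMIs, a window that narrows the depths without making them equal, none of 180 and 1.38% of 507 DP-like nuclei held 1 TGFBR2 UMI, and 18.9% and 18.0% held 2 or more. In the same window 2 or more UMIs were found in 38.6% and 38.6% of strongly signalled-like, 34.1% and 38.7% of CD4 SP-like, 35.4% and 31.6% of HIVEP3-led and 8.55% and 7.69% of gamma delta-like nuclei. Median depth within the window was still lower in DP-like nuclei (853.5 and 859 UMIs) than in CD4 SP-like (1043.5 and 1151.5), strongly signalled-like (1009 and 1061), HIVEP3-led (877 and 907) and gamma delta-like nuclei (908 and 936). In the deposited counts the high groups were above DP-like nuclei by each of these measures, while the DP-like and gamma delta-like order depended on the measure. No measure here restores single UMIs that may be missing from DP-like nuclei, and 2 or more UMIs are harder to reach in shallow nuclei.

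TGFBR1, the type I receptor, varied less than TGFBR2 over the T lineage. DP-like nuclei had 276 and 265 CPM of TGFBR1, and CD4 SP-like nuclei 268 and 251 CPM. HIVEP3-led nuclei had 198 and 177 CPM, innate-like mature nuclei 186 and 182 CPM, HMCN1-led nuclei 219 and 205 CPM and mitotic nuclei 213 and 214 CPM. Strongly signalled-like nuclei, highest in TGFBR2 at this clustering but not with doublets kept or at the finer one, were the lowest T-lineage group in TGFBR1 here, with 103 and 97.3 CPM from 10 and 15 UMIs. DP-like nuclei were 2.69-fold and 2.73-fold above them, and CD4 SP-like nuclei 2.61-fold and 2.58-fold. Gamma delta-like (175 and 257 CPM), cycling gamma delta-like (148 and 262 CPM), S phase-like (208 and 253 CPM) and cycling early DN-like nuclei (164 and 211 CPM) were each higher in replicate 2. The mean of strongly signalled-like nuclei, 100 CPM, ranged up to 190 CPM when their group was drawn by other settings. Only 2 of the 16 neighbouring pairs in the order of TGFBR1 were apart.

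Outside the T lineage TGFBR1 rested on few UMIs. B-like nuclei had 283 and 169 CPM, dendritic-like 175 and 162 CPM, macrophage-like 212 and 327 CPM and erythroid-like 257 and 404 CPM, all with wide counting intervals (70.5 to 361 CPM for dendritic-like nuclei of replicate 1). Thymic epithelial-like nuclei disagreed between libraries, with 129 CPM (25 UMIs in 19 nuclei) in replicate 1 and 5.49 CPM (2 UMIs in 1 nucleus) in replicate 2. The Poisson intervals, 83.5 to 190 and 0.665 to 19.8 CPM, did not meet, so no epithelial level of TGFBR1 can be given from these libraries.

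Nuclei with both receptors were counted as well. TGFBR1 and TGFBR2 were found together in 14.2% and 19.7% of CD4 SP-like nuclei, close to the product of the separate shares, 14.6% and 18.7%. In DP-like nuclei it was 1.46% and 1.41%, against products of 1.25% and 1.70%. In strongly signalled-like nuclei 2 and 10 nuclei held both.

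TGFBR3, the co-receptor, was highest in the cycling early DN-like group and was among the leading genes of its cluster. Cycling early DN-like nuclei had 286 and 260 CPM of TGFBR3, 54 UMIs in 29 nuclei and 90 UMIs in 49 nuclei. The next T-lineage group, HMCN1-led nuclei, had 49.7 and 57.6 CPM, 5.75-fold and 4.51-fold less. The remaining T-lineage groups had at most 51.3 CPM in any library, and CD4 SP-like nuclei had a single UMI in both libraries together. DP-like nuclei were listed at 0 in both libraries, among 607782 and 1033291 UMIs, where 3 counts would be 4.94 and 2.90 CPM. Set against 3 counts over both libraries, cycling early DN-like nuclei were 147-fold and HMCN1-led nuclei 29.7-fold higher. These folds allow only for the counting error of the DP-like zeros, not for that of the higher group.

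TGFBR3 was also found in epithelial and other non-T groups. Thymic epithelial-like nuclei had 155 and 96.0 CPM, 30 UMIs in 18 nuclei and 35 UMIs in 25 nuclei. CHGA-led nuclei had 255 and 89.5 CPM (17 and 11 UMIs), and 1 nucleus held 9 of the 17. Macrophage-like nuclei had 30.4 and 192 CPM, and dendritic-like nuclei 50.1 and 122 CPM, both higher in replicate 2 and both from at most 10 UMIs. Only the step from cycling early DN-like to CHGA-led nuclei, whose ranges just parted, and 2 lower steps separated neighbours in the TGFBR3 order. In replicate 1 the Poisson intervals of cycling early DN-like (214.5 to 372.5 CPM) and CHGA-led nuclei (148.3 to 407.5 CPM) overlapped. Mesenchymal markers, of which 6 and 5 of 12 were found in thymic epithelial-like nuclei, summed to 516 and 615 CPM in thymic epithelial-like nuclei and 674 and 89.5 CPM in CHGA-led nuclei, against 8.23 and 23.2 CPM in DP-like nuclei. They were at 5.29 and 0 CPM in cycling early DN-like nuclei. Their part in the epithelial value was not tested.

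TGFB2, the ligand, was high in 1 T-lineage group and in the epithelium. Strongly signalled-like nuclei had 257 and 259 CPM. Thymic epithelial-like nuclei had 227 and 225 CPM. CHGA-led nuclei, in which 15 and 16 of 18 epithelial markers were found, had 120 and 114 CPM. Those markers summed to 4042 and 2969 CPM there, against 8744 and 7575 CPM in thymic epithelial-like nuclei. The CHGA-led group met the epithelial list with 11 of 12 detected markers. It stays unnamed because its top 10 genes held 1 marker of another class and none of the epithelial list. B markers summed to 2141 and 903 CPM in it. The library values of these 3 groups kept their order and lay apart from each other and from the next, innate-like mature nuclei at 76.9 and 56.6 CPM. The Poisson intervals of the first 2 groups overlapped widely, so counting error leaves their order unsettled. They were 166 to 379 and 185 to 353 CPM in strongly signalled-like, and 165 to 305 and 179 to 279 CPM in thymic epithelial-like nuclei. Those of CHGA-led nuclei, 51.7 to 236 and 62.3 to 191 CPM, overlapped with both.

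The sources of these UMIs differed. In strongly signalled-like nuclei TGFB2 came from 8 of 100 and 11 of 119 nuclei, with 25 and 40 UMIs, and single nuclei held 28.0% and 32.5% of them. In thymic epithelial-like nuclei it came from 26 of 84 and 42 of 94 nuclei, with 44 and 82 UMIs and at most 6 in a nucleus. Thinned to 500 UMIs, 9.22% and 10.3% of epithelial-like and 5.49% and 4.92% of strongly signalled-like nuclei held TGFB2. Epithelial-like nuclei with a TTN UMI had 228 and 203 CPM and those without had 226 and 253 CPM. Median depth was 2333.5 and 3586.5 UMIs in epithelial-like and 901.5 and 1135 UMIs in strongly signalled-like nuclei, and the thinned shares differed less than the full ones. The top nucleus held 9.09% and 7.32% of the epithelial-like TGFB2 UMIs, a smaller part than in strongly signalled-like nuclei. Of 18 epithelial markers, 0 and 1 were found in the strongly signalled-like group, with a summed 0 and 6.49 CPM. The strongly signalled-like value depended on how the group was drawn: its mean of 258 CPM became 75.5 CPM with doublets kept (1431 nuclei), 68.9 CPM at the coarser clustering (1919 nuclei), 146 CPM at the finer clustering (643 nuclei) and 140 CPM with separate UMIs for clustering (464 nuclei). With at least 400 detected genes per nucleus the mean rose to 346 CPM (124 nuclei).

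In the remaining thymocytes TGFB2 was low or listed at 0. HIVEP3-led nuclei had 36.2 and 47.5 CPM, 7.09-fold and 5.46-fold less than strongly signalled-like nuclei, and 1 nucleus of replicate 2 held 15 of the 25 UMIs there. Gamma delta-like nuclei had 34.1 and 53.5 CPM, cycling gamma delta-like 63.4 and 27.8 CPM, and cycling early DN-like 26.4 and 43.3 CPM. CD4 SP-like nuclei had 0 and 35.2 CPM. DP-like nuclei were listed at 0 in both libraries. Against 3 counts there over both libraries, strongly signalled-like nuclei were 141-fold and thymic epithelial-like nuclei 123-fold higher. The counting error of the higher group is not allowed for. SKI, a repressor of SMADs, was also listed at 0 in DP-like nuclei.

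How often a gene of such a level is listed at 0 was counted over all genes. TGFBR3 and TGFB2 had 33.7 and 34.4 CPM over the T lineage. Of 2504 genes at 20 to 50 CPM over the T lineage, 62 (2.48%) had no UMI in DP-like nuclei, although 20 CPM would give 32.8 UMIs there. In innate-like mature nuclei it was 0.759%, in strongly signalled-like nuclei, with far fewer UMIs, 4.27%. The part of the free-RNA correction in these zeros was not tested, and they do not show that the transcripts were absent from DP-like nuclei.

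To summarise each gene, CPM was averaged over the comparison groups with equal weight, and the log2 of that mean plus 10 was subtracted from log2(CPM + 10) of the T lineage or of DP-like nuclei. The T lineage minus the other 5 named classes was 1.36 ± 0.29 (SD, n = 2 libraries) for TGFBR2, 0.02 ± 0.06 for TGFBR1, -0.88 ± 0.28 for TGFBR3 and -0.63 ± 0.01 for TGFB2. The difference for TGFBR1 was within its spread. That for TGFB2 rested on the thymic epithelial-like class: without it the difference was 0.72, and with log2 values averaged over the classes it was 0.31. B-like, dendritic-like, macrophage-like and erythroid-like nuclei had mean TGFB2 levels of 25.4, 10.1, 15.2 and 16.9 CPM, from 3, 1, 1 and 1 UMIs. These means were below the 34.0 and 34.7 CPM of the T lineage, but rested on too few UMIs to place the classes. B-like nuclei of replicate 1 had 35.4 CPM. The difference of 0.72 rests on the same few UMIs. For TGFBR3 the log2 average gave -0.29, and for TGFBR2 2.22. DP-like nuclei minus the mean of the other T-lineage groups gave 0.43 ± 0.15 for TGFBR1, -0.89 ± 0.12 for TGFBR2, -2.55 ± 0.08 for TGFBR3 and -2.73 ± 0.05 for TGFB2. DP-like nuclei were thus above the average thymocyte group in TGFBR1 alone. For TGFBR3 and TGFB2, listed at 0 in DP-like nuclei, a negative value was fixed in advance. Its size depended on the 10 CPM added, and its SD came from the other groups alone.

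The genes most like each member were found by Pearson correlation of log2(CPM + 10) over the 17 groups, within each library, among 3560 genes with at least 200 UMIs in each. The groups of 1 library share its depth and preparation, so the coefficients are descriptions. TGFBR2 was closest to PLCL2 (r = 0.874 and 0.868), BRSK1, LEMD3, CDK5RAP2 and ARHGAP15 (0.897 and 0.853). TGFBR1 was closest to ASXL2 (0.841 and 0.952), EDRF1, CNOT10, BRWD1 and ELP3 (0.714 and 0.717). TGFBR3 was closest to NRP2 (0.774 and 0.757), PALLD, CCDC50, TBC1D4 and IQSEC1 (0.658 and 0.775). TGFB2 was closest to HSPH1 (0.707 and 0.805), ARID5B, RALGPS2, HDAC4 and KLHL29 (0.617 and 0.711). Of these, BRSK1, ARHGAP15, ARID5B and KLHL29 had helped to form the clusters. Among the members themselves TGFBR1 and TGFB2 had negative coefficients (-0.757 and -0.702), and TGFBR1 and TGFBR2 were only weakly alike (0.323 and 0.436). The negative coefficients include the thymic epithelial-like TGFBR1 values, which disagreed between libraries. They also include TGFB2 values of at most 1 UMI per library in dendritic-like, macrophage-like and erythroid-like nuclei. The 3 groups highest in TGFB2 were the 3 lowest in mean TGFBR1, from 25, 27 and 9 TGFBR1 UMIs in both libraries together.

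The rest of the pathway was read from 7 lists of 72 genes, of which 58 matched by symbol; SMAD4 was not among them and was not analysed here. In the contrast of DP-like nuclei with the mean of the other T-lineage groups, 38 of these genes could be tested with edgeR's quasi-likelihood test and Benjamini-Hochberg adjustment over all genes, which give every log2 fold change, SE and adjusted p below. Of them 20 were called at an adjusted p under 0.05, 13 higher and 7 lower in DP-like nuclei. Over all 7017 genes tested 38.2% were called, 20% higher and 18.2% lower. The lean of the pathway genes to higher calls depended on the settings, with 9 higher and 8 lower under RLE scaling, 8 and 9 under DESeq2, and 6 and 6 with at least 400 detected genes per nucleus. The median log2 difference was 0.30 for the 38 genes and 0.01 for all genes, against 0.02 and -0.15 under DESeq2. The split of all calls, 1400 higher and 1280 lower, depended on scaling, since the RLE size factors gave 996 and 1437 and DESeq2 915 and 1667. RLE also moved the median of all genes from 0.01 to -0.13, and in the contrast of the T lineage with the other classes from 0.22 to 0.10.

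Downstream of the receptors, the SMADs that TGFBR1 phosphorylates differed in direction. SMAD3 had 174 and 153 CPM in DP-like nuclei and was higher there (log2 fold change 0.77 ± 0.19 SE, adjusted p = 0.00307). S phase-like nuclei were close, with 158 and 151 CPM of SMAD3, and HIVEP3-led nuclei lower, with 104 and 53.2 CPM. SMAD2 had 41.1 and 23.2 CPM in DP-like nuclei against 226 and 324 CPM in strongly signalled-like and 194 and 196 CPM in HIVEP3-led nuclei, and was lower in DP-like nuclei (-1.18 ± 0.34, adjusted p = 0.00932). The 3 groups highest in TGFBR2 had higher SMAD2 levels in CPM than DP-like nuclei, but were not alone in this. Innate-like mature (111 and 82.8 CPM) and cycling gamma delta-like nuclei (67.6 and 87.3 CPM) were also above DP-like nuclei. So were gamma delta-like (68.2 and 78.4 CPM) and S phase-like nuclei (65.3 and 56.6 CPM), which were not high in TGFBR2. HMCN1-led, mitotic and cycling early DN-like nuclei overlapped with DP-like nuclei in SMAD2. The call of SMAD3 was lost with at least 400 detected genes per nucleus (adjusted p = 0.106) and that of SMAD2 at the coarser clustering (0.0799).

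SMAD7, the inhibitory SMAD, was by far highest in CD4 SP-like nuclei, 1 of the groups that were high in TGFBR2. CD4 SP-like nuclei had 1535 and 1592 CPM of SMAD7. Innate-like mature nuclei had 419 and 479 CPM and HIVEP3-led nuclei 368 and 289 CPM. Strongly signalled-like nuclei, with the highest TGFBR2, had 154 and 149 CPM, which was close to the 163 and 146 CPM of DP-like nuclei. The CD4 SP-like level was 9.97-fold and 10.7-fold above the strongly signalled-like one. Of the groups highest in TGFBR2, CD4 SP-like, innate-like mature and HIVEP3-led nuclei thus had more SMAD7 than DP-like nuclei. Strongly signalled-like nuclei were the exception. Gamma delta-like nuclei, not high in TGFBR2, had 292 and 168 CPM of SMAD7. These are descriptions, since SMAD7 was among the leading genes of the CD4 SP-like cluster. In the DP-like contrast SMAD7 was not called (-0.26 ± 0.18, adjusted p = 0.273).

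**Figure D3:**
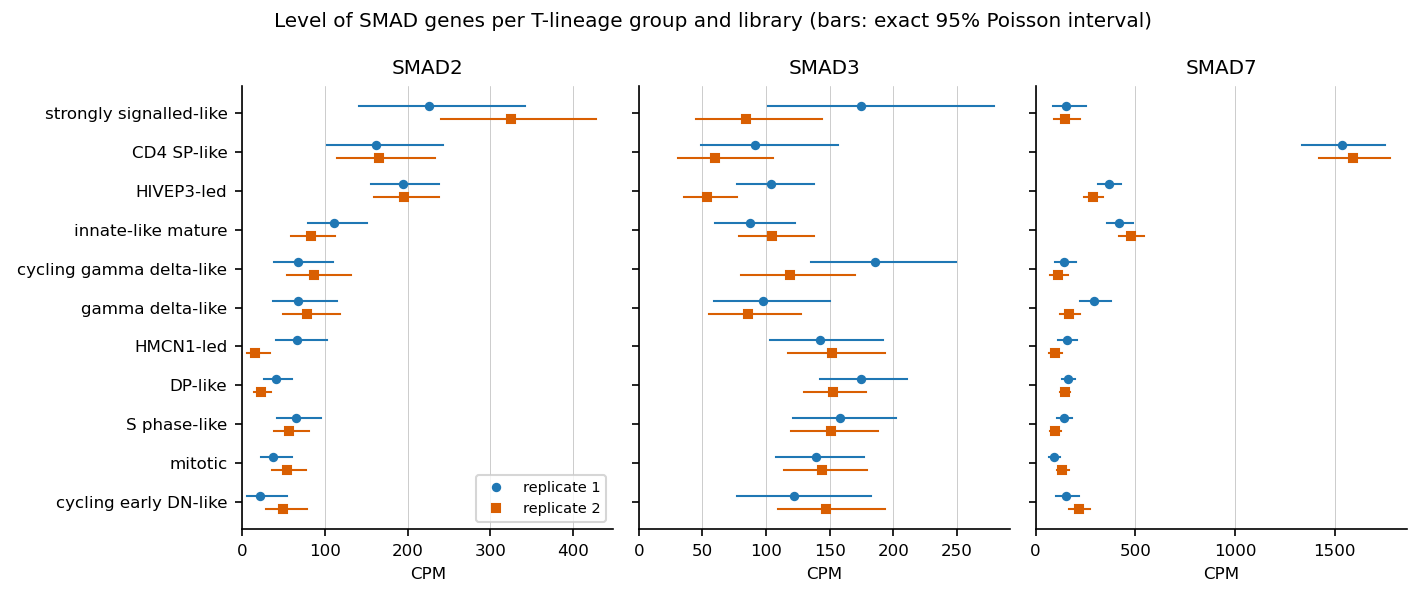
Level of SMAD2, SMAD3 and SMAD7 in each T-lineage group, in CPM on linear axes, with 1 point per library and its exact 95% Poisson interval. SMAD7 stands out in CD4 SP-like nuclei (1535 and 1592 CPM), SMAD2 is highest in strongly signalled-like nuclei (226 and 324 CPM), and SMAD3 in DP-like nuclei is at 174 and 153 CPM.

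Regulators of the receptors and SMADs made up most of the calls with the smallest p. NEDD4L and SMURF2, ubiquitin ligases that act on SMADs and on TGF-beta receptors, were higher in DP-like nuclei (1.30 ± 0.13, adjusted p = 2.05e-07, and 0.97 ± 0.11, adjusted p = 4.52e-07). NEDD4L had 497 and 460 CPM there and 838 and 852 CPM in HMCN1-led nuclei, against 123 and 123 CPM in strongly signalled-like nuclei. LDLRAD4, a membrane protein that keeps SMAD2 and SMAD3 from the receptor, was lower in DP-like nuclei (-2.30 ± 0.23, adjusted p = 1.35e-07), with a mean of 29.8 CPM against 596 and 512 CPM in strongly signalled-like and 557 and 527 CPM in innate-like mature nuclei. SKI was listed at 0 in DP-like nuclei and was low in HMCN1-led (23.2 and 0 CPM) and S phase-like nuclei (20.1 and 3.77 CPM). Mitotic (10.5 and 10.8 CPM) and cycling early DN-like nuclei (15.9 and 17.3 CPM) were low in it too. Innate-like mature nuclei had 570 and 614 CPM. SKI was called lower in DP-like nuclei (adjusted p = 1.90e-06). That call was lost with at least 400 detected genes per nucleus and at the finer clustering, with adjusted p up to 1. TRAF6, a ubiquitin ligase of the branch that leads from the receptors to TAK1, was higher (2.32 ± 0.30, adjusted p = 3.64e-06), with 168 and 219 CPM against 20.5 and 0 CPM in strongly signalled-like nuclei. HMCN1-led nuclei had 185 and 170 CPM of TRAF6, S phase-like nuclei 158 and 155 CPM and mitotic nuclei 152 and 142 CPM, so DP-like nuclei did not stand alone. ACVR2A, a type II receptor for activins, was higher (0.85 ± 0.12, adjusted p = 1.68e-05). It had 439 and 401 CPM in DP-like, 374 and 451 CPM in HMCN1-led and 176 and 211 CPM in CD4 SP-like nuclei. HMCN1-led nuclei were also close to DP-like nuclei in SMURF2, with 602.5 and 575.7 CPM against 623.6 and 547.8 CPM. The other ligand genes, TGFB1 (1.65 and 22.3 CPM in DP-like nuclei, -1.01 ± 0.49, adjusted p = 0.115) and TGFB3 (18.1 and 30.97 CPM, 1.42 ± 0.67, adjusted p = 0.100), were not called.

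**Figure D4:**
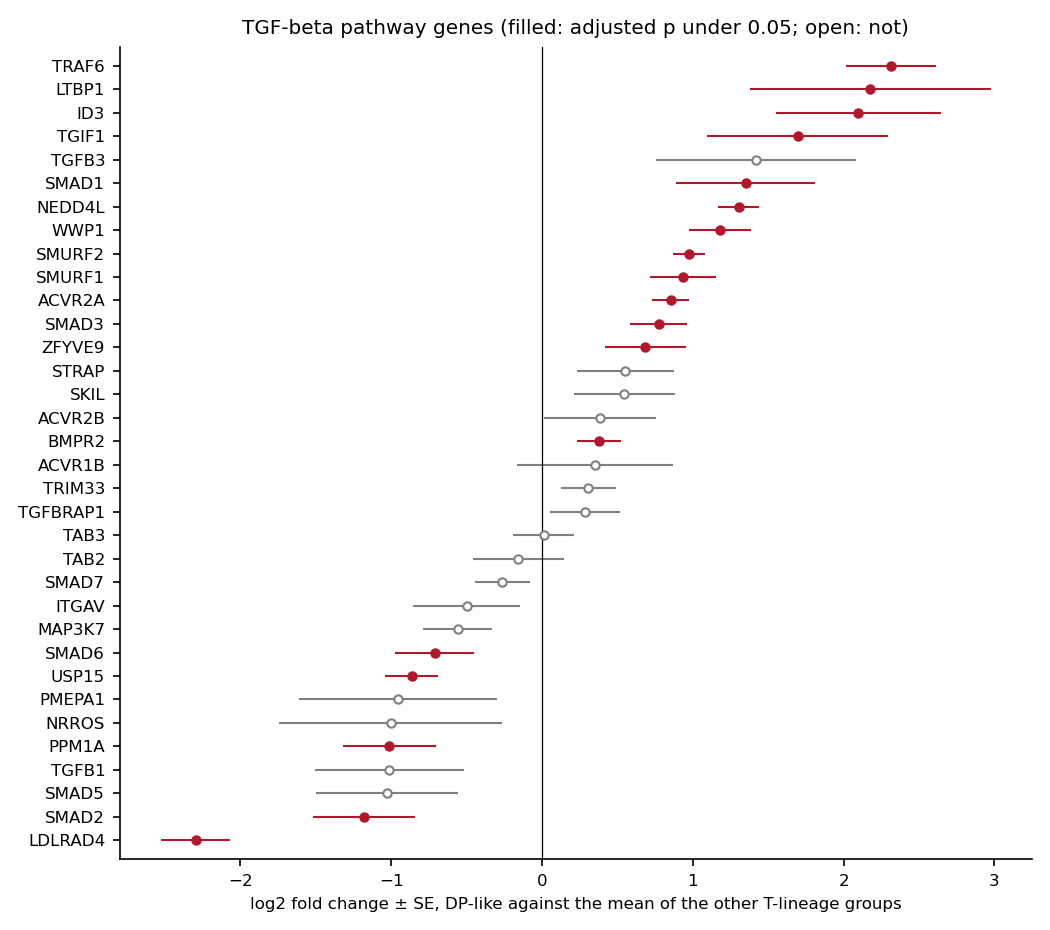
Log2 fold change with its SE for 34 of the 38 TGF-beta pathway genes tested, DP-like nuclei against the mean of the other T-lineage groups; filled points had an adjusted p under 0.05. BMPR1A, ID2, ITGB8 and SKI had at most 3 UMIs in DP-like nuclei and are left out because their fitted values depend on the prior count. SKI is among the 6 genes named for the smallest p. Of those 6 genes, TRAF6 lies highest and LDLRAD4 lowest among the ones plotted.

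By list, 5 SMAD regulators were higher and 4 lower of 12 tested, 2 SMADs higher and 2 lower of 6, 2 other receptors higher of 5, and 2 receptor adaptors and kinases higher of 7. Of the latent complex genes 1 of 4 was higher, and of the transcriptional targets 1 was higher and 1 lower of 2. Of the 20 calls, that of BMPR2 was lost under all 9 alternatives (adjusted p 0.0715 to 0.255) and that of LTBP1 under 7 (0.0338 to 0.190 over all 9), whereas LDLRAD4, NEDD4L, SMURF2, TRAF6, ACVR2A, WWP1 and USP15 were called under all 9. LTBP1, called higher, had 6.58 and 13.6 CPM in DP-like nuclei, below the 59.6 and 64.5 CPM of HMCN1-led nuclei. The other T-lineage groups had at most 14.8 CPM of it in a library. ID3, also called higher, had 21.4 and 131 CPM in DP-like nuclei and 134 and 118 CPM in HIVEP3-led nuclei.

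Between the T lineage and the other classes 19 pathway genes could be tested and 4 were called, where 19.1% of all 2274 genes were called, 14.6% higher and 4.44% lower. The median log2 difference was -0.21 for these 19 and 0.22 for all genes. NEDD4L (2.02 ± 0.47, adjusted p = 0.00435) and SMURF2 (1.41 ± 0.36, adjusted p = 0.00720) were higher in the T lineage. SKI (-1.64 ± 0.41, adjusted p = 0.00713) and ITGAV, an integrin subunit that frees TGF-beta from its latent form (-1.26 ± 0.41, adjusted p = 0.0340), were lower. ITGAV lost its call under 4 of 8 alternatives, SKI under 2 of 9 and SMURF2 under DESeq2 (adjusted p = 0.0540). SMAD3 (0.71 ± 0.54, adjusted p = 0.470) and SMAD7 (0.72 ± 0.39, adjusted p = 0.246) were not called. SMAD2, TGFB1 and TGFB3 did not pass the filter on low counts in this contrast. Over all genes the T-lineage calls, 333 higher and 101 lower, became 326 and 427 with DESeq2.

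In thymic epithelial-like nuclei, which carried TGFB2 and TGFBR3 but hardly any TGFBR2, 7 of the 19 genes were called against the other classes, 5 higher and 2 lower. Over all genes 52.9% were called, 30.6% higher and 22.3% lower, and 7 of 19 does not exceed that share. The median log2 difference was 0.11 for the 19 genes and 0.07 for all genes. BMPR1B, a type I receptor for bone morphogenetic proteins, had 2868 and 2584 CPM (adjusted p = 1.70e-11) from 1498 UMIs. It had 11 UMIs in the whole T lineage, 2 in macrophage-like, 1 in dendritic-like and none in B-like or erythroid-like nuclei, so its fitted fold change depends on the prior count. BMPR2, the type II receptor that pairs with it, had 506 and 499 CPM (2.14 ± 0.35, adjusted p = 3.30e-05). B-like nuclei had 424 and 537 CPM of BMPR2, above the epithelial value in replicate 2. Dendritic-like nuclei had 0 and 243 CPM and macrophage-like nuclei 60.7 and 76.8 CPM. ZFYVE9, which anchors SMAD2 and SMAD3 near the receptors, had 464 and 508 CPM (3.89 ± 0.40, adjusted p = 7.33e-08), and SKI had 980 and 823 CPM (2.52 ± 0.26, adjusted p = 8.11e-08). BMPR1B and ZFYVE9 passed the filter on low counts only through their level in thymic epithelial-like nuclei. In a library of the other named classes they reached at most 60.7 and 115 CPM. Their calls as higher were thus favoured in advance, and their p-values are no separate support. Macrophage-like nuclei had 759 and 1095 CPM of SKI, above the epithelial value in replicate 2, and erythroid-like nuclei 0 and 67.4 CPM. SMAD7 was lower, with 5.16 and 54.9 CPM (-2.39 ± 0.54, adjusted p = 9.29e-04), and so was NEDD4L, with 0 and 19.2 CPM (-3.37 ± 0.79, adjusted p = 0.00119). SMAD7 and NEDD4L lost their calls at the coarser clustering (adjusted p = 0.0694 and 0.104). SMAD3 was not called (10.3 and 49.4 CPM, -1.13 ± 0.68, adjusted p = 0.175), and SMAD2 and TGFB1 were listed at 0 in both libraries.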

How the data were processed

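The deposited values were UMI counts per gene and nucleus of 2 libraries. The authors counted reads with Cell Ranger 7.0.1 on GRCg7b and used Scanpy 1.9.1, per the submitters' processing notes. Per the labels' protocols, only genes annotated as protein-coding or lncRNA were counted. The names of the deposited tables refer to CellBender, with version and settings not given in the sources used here.

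Nuclei with fewer than 200 detected genes (1393 and 476) or over 5% mitochondrial UMIs (0 and 1) were left out, as were the 6% with the highest simulated doublet score (310 and 334), a preset share and not a caller's verdict. Counts were scaled to 10000 per nucleus, logged, reduced to 30 components of 2000 variable genes and clustered by Leiden at resolution 1 (leidenalg 0.10.2, igraph 0.11.9, scikit-learn 1.9.0, numpy 2.4.6), without the 4 genes and the pathway lists. Clusters were named from 26 marker lists, a class from at least 3 markers at 2-fold and a thymocyte stage from at least 3 markers at 1.5-fold with a mean log2 difference of at least 1. A cluster that met the innate lymphoid list was kept in the T lineage where its summed T-lineage markers reached at least 0.5 of the T-lineage median. A cluster that met a class list stayed unnamed where its top 10 genes held more markers of another class than of its own. The unnamed group was left out of the class tests. These naming rules, the counts of 1 against 2 UMIs, the depth window of 700 to 1500 UMIs and the window of 20 to 50 CPM were chosen after seeing the data. The members and lists were chosen with earlier results of these data known.

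UMI counts were summed per library and group. Intervals are exact 95% Poisson intervals and, like the floor of 3 counts, cover counting error only. Sums were tested with edgeR 4.0.16 (R 4.3.3; quasi-likelihood, TMM, filterByExpr, the library as a block, Benjamini-Hochberg adjustment, threshold 0.05), and DESeq2 1.42.0 was an alternative. The block was used because groups of 1 library share it. Genes used for clustering were left out of the tests, but genes that vary with them were not, so the p-values are not independent of the clustering. Residual degrees of freedom were 5 for the classes and 10 for the T-lineage groups. With the library as a block, the p-values measure how far the group differences varied between these libraries. The residual degrees of freedom treat groups of 1 library as separate units. Separate birds are not stated, so that variation may be technical. The code was tested on simulated data. Pathway genes named are the 6 with the smallest adjusted p per contrast, with the other ligands, SMAD2, SMAD3 and SMAD7; genes and levels beyond these were chosen after their values were seen. Symbols and positions came from the deposited feature tables and RefSeq's GRCg7b table. Figures were drawn with matplotlib 3.10.9.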

Additional observations from a re-analysis of the deposited data

How the results depend on the processing

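The log2 difference of the T lineage from the other classes had no stable sign for TGFBR1 (0.02): it was 0.14 with at least 400 detected genes per nucleus, 0.13 at Leiden resolution 2, 0.74 with the other groups pooled, -0.15 with separate UMIs for clustering and levels, and -0.016 to 0.064 with a replicate left out. For TGFBR2 (1.36) it was 0.95 at resolution 2 and 2.11 pooled, and for TGFBR3 (-0.88) -1.33 pooled. For TGFB2 (-0.63) it was -0.89 with 400 genes, -0.67 with doublets kept, -0.72 at resolution 0.5, -0.86 with separate UMIs and -1.81 pooled. The DP-like difference kept its sign under every alternative run. For TGFBR3 and TGFB2, listed at 0 in DP-like nuclei at the main setting, this is no support, since the zeros fixed the sign there. For TGFBR1 it was 0.27 with 400 genes. For TGFBR2 it was -0.72 with 400 genes, -0.52 with doublets kept, -0.61 and -0.74 at resolutions 0.5 and 2 and -0.73 pooled. In the same order it was -2.28, -2.43, -2.97, -2.37 and -2.37 for TGFBR3 and -2.38, -2.02, -2.40, -2.34 and -2.40 for TGFB2, with -2.81 and -1.95 for separate UMIs. The causes were not tested. With log2 values averaged over the other groups, chosen after seeing the data, the T-lineage differences were 0.36, 2.22, -0.29 and 0.31 for TGFBR1, TGFBR2, TGFBR3 and TGFB2, and the DP-like ones of the last 3 were -0.61, -1.85 and -2.25. Without the thymic epithelial-like class, also chosen then, the T-lineage differences were -0.19 for TGFBR1, -0.54 for TGFBR3 and 0.72 for TGFB2.

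With single TGFBR2 UMIs not counted, an alternative chosen after seeing the data, gamma delta-like nuclei went from 1.07 to 0.574 of the DP-like level. The pathway calls of the T lineage (4) were 1 with separate UMIs, 7 with DESeq2 and 16 without a filter on low counts, where all genes gave 3297 higher and 43 lower calls. Those of the epithelial contrast (7) were 12 with 400 genes, 15 with doublets kept and 16 without the filter, and the DP-like calls (20) were 12 with 400 genes. Over all genes, 400 genes per nucleus gave 1274 DP-like calls against 2680, and the T-lineage calls (434) were 229 with separate UMIs and 753 with DESeq2, and the epithelial calls (1202) were 2631 without the filter. Without the replicate block the pathway calls were 5, 8 and 15 against 4, 7 and 20 with it. Tests with a replicate left out were not run, because 1 library leaves no residual degrees of freedom. Non-T groups of 26 to 53 nuclei per library often rest on under 20 UMIs of a member.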
